A study of Mus musculus with 4 samples.

Results

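The HoxD cluster is a run of 9 Hoxd genes on mouse chromosome 2, with Evx2 beside Hoxd13 at one end. The 10 members, taken by gene name out of 21887 protein-coding genes, are Evx2, Hoxd13, Hoxd12, Hoxd11, Hoxd10, Hoxd9, Hoxd8, Hoxd4, Hoxd3 and Hoxd1. They cover 112.154 kb of build mm10, from the lower end of Evx2 at position 74652989 to the upper end of Hoxd1 at position 74765142. Peaks of CTCF and RAD21 were taken over a wider window of 1.6 Mb, which reaches 653 kb beyond Evx2 and 835 kb beyond Hoxd1 into the flanking regulatory landscapes, and peaks of different libraries that overlapped by at least 1 bp were joined to 1 site. The window held 40 of 56868 sites on chromosomes 1 to 19, X and Y, 12 of them inside the cluster, 11 on the side toward the centromere and 17 on the side toward the telomere.

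The material was gastruloids, aggregates of mouse embryonic stem cells that elongate along an axis. They were collected 96 h after aggregation and pooled. Binding was mapped by ChIPmentation, which is chromatin immunoprecipitation with sequencing adapters added by the Tn5 transposase. Both mutants carried a HoxB deletion (Del) on 1 copy of chromosome 11, and on the other the HoxB deletion written Del(i9-13) in the labels, with CTCF binding sites (CBS) inserted. In DelCBS7-10 gastruloids these were the sites of Ins(CBS5-10) after a further deletion, Del(CBS7-10). In InsCBS5-10 gastruloids Ins(CBS5-10) was whole, and the third group was wild type. All named edits lie on chromosome 11, and the labels name none on chromosome 2. CTCF was mapped in all 3 groups and RAD21 in InsCBS5-10, with 1 library per group, so no difference below has a replicate check and none was tested. The labels do not say how many lines or clones stand behind each pool. A further RAD21 list has no sample record. Its peak names read wild type and 96 h, the series states that it reuses other deposited data, and its values stand beside the others as those of a list of no sample.

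Hox genes encode homeodomain transcription factors that give identity along the body axis, and in each cluster they are switched on in sequence from one end to the other. CTCF binds a long, oriented DNA motif and can halt the ring-shaped cohesin complex as it extrudes chromatin loops, and RAD21 is the cohesin subunit that closes the ring. At HoxD, bound CTCF sites are known for dividing contacts between the landscape on the centromeric side, which serves the Hoxd13 end, and the landscape on the telomeric side, which serves the Hoxd1 end.

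Sequence was at hand for promoters, 250 bases before to 50 after each start. The 3 shown here, from RefSeq on build GRCm38.p6, carry a contrast used below. The Hoxd10 promoter (chr2:74691641-74691940, plus strand) lay under RAD21 in InsCBS5-10 and CTCF in wild type. The Hoxd9 promoter (chr2:74697513-74697812, plus strand) had the best CTCF-like sequence among members with no peak called. The promoter of the most upstream start of the non-coding gene Gm13652 in the telomeric flank (chr2:75137926-75138225, minus strand) lay under a peak in all lists. The capitals mark the 19 bases that scored best, on either strand, against a CTCF matrix described with the promoter results.
Hoxd10 promoter: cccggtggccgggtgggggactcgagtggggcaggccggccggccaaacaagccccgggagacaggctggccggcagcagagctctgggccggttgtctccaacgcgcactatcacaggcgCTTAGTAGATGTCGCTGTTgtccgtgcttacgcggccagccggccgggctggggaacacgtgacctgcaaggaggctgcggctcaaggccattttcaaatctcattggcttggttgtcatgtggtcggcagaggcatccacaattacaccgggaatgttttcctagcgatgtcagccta
Hoxd9 promoter: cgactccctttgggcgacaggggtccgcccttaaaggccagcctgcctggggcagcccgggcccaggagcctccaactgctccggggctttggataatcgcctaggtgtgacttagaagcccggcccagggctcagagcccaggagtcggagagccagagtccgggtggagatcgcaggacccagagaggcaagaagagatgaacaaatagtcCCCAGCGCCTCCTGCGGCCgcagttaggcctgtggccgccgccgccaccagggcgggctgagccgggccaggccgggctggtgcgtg
Gm13652 promoter: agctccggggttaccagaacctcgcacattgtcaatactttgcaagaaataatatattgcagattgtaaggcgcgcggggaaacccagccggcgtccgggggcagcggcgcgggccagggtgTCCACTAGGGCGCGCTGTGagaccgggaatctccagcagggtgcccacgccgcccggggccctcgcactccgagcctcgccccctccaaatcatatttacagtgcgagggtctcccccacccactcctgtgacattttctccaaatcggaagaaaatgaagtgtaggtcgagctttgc

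The peak lists held 36589 CTCF peaks in DelCBS7-10, 34499 in InsCBS5-10 and 47931 in wild type. RAD21 had 19610 peaks in InsCBS5-10 and 59484 in the list of no sample. Of these, 27, 19 and 29 CTCF peaks of DelCBS7-10, InsCBS5-10 and wild type lay in the window, with 9, 5 and 9 inside the cluster. RAD21 had 15 window peaks and 6 cluster peaks in InsCBS5-10, and 42 and 17 in the list of no sample. Fold enrichment is the authors' ratio, per library, of signal at the peak over background around it. The percentile given with it is the percentage of peaks in the same list with an equal or lower fold enrichment. Read numbers cannot be taken from peak lists, so where a list has no peak, none was called, and signal may lie below the threshold. Because the lists differ in length, a difference in percentile between lists does not by itself show a change in binding, and each is set beside the same difference over all sites.

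In the plot of fold enrichment along the cluster, peaks of the labelled libraries stopped within Hoxd3, and the Hoxd4 to Hoxd1 stretch was empty in all 4. The sites are described from Evx2 toward Hoxd1.

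**Figure D1:**
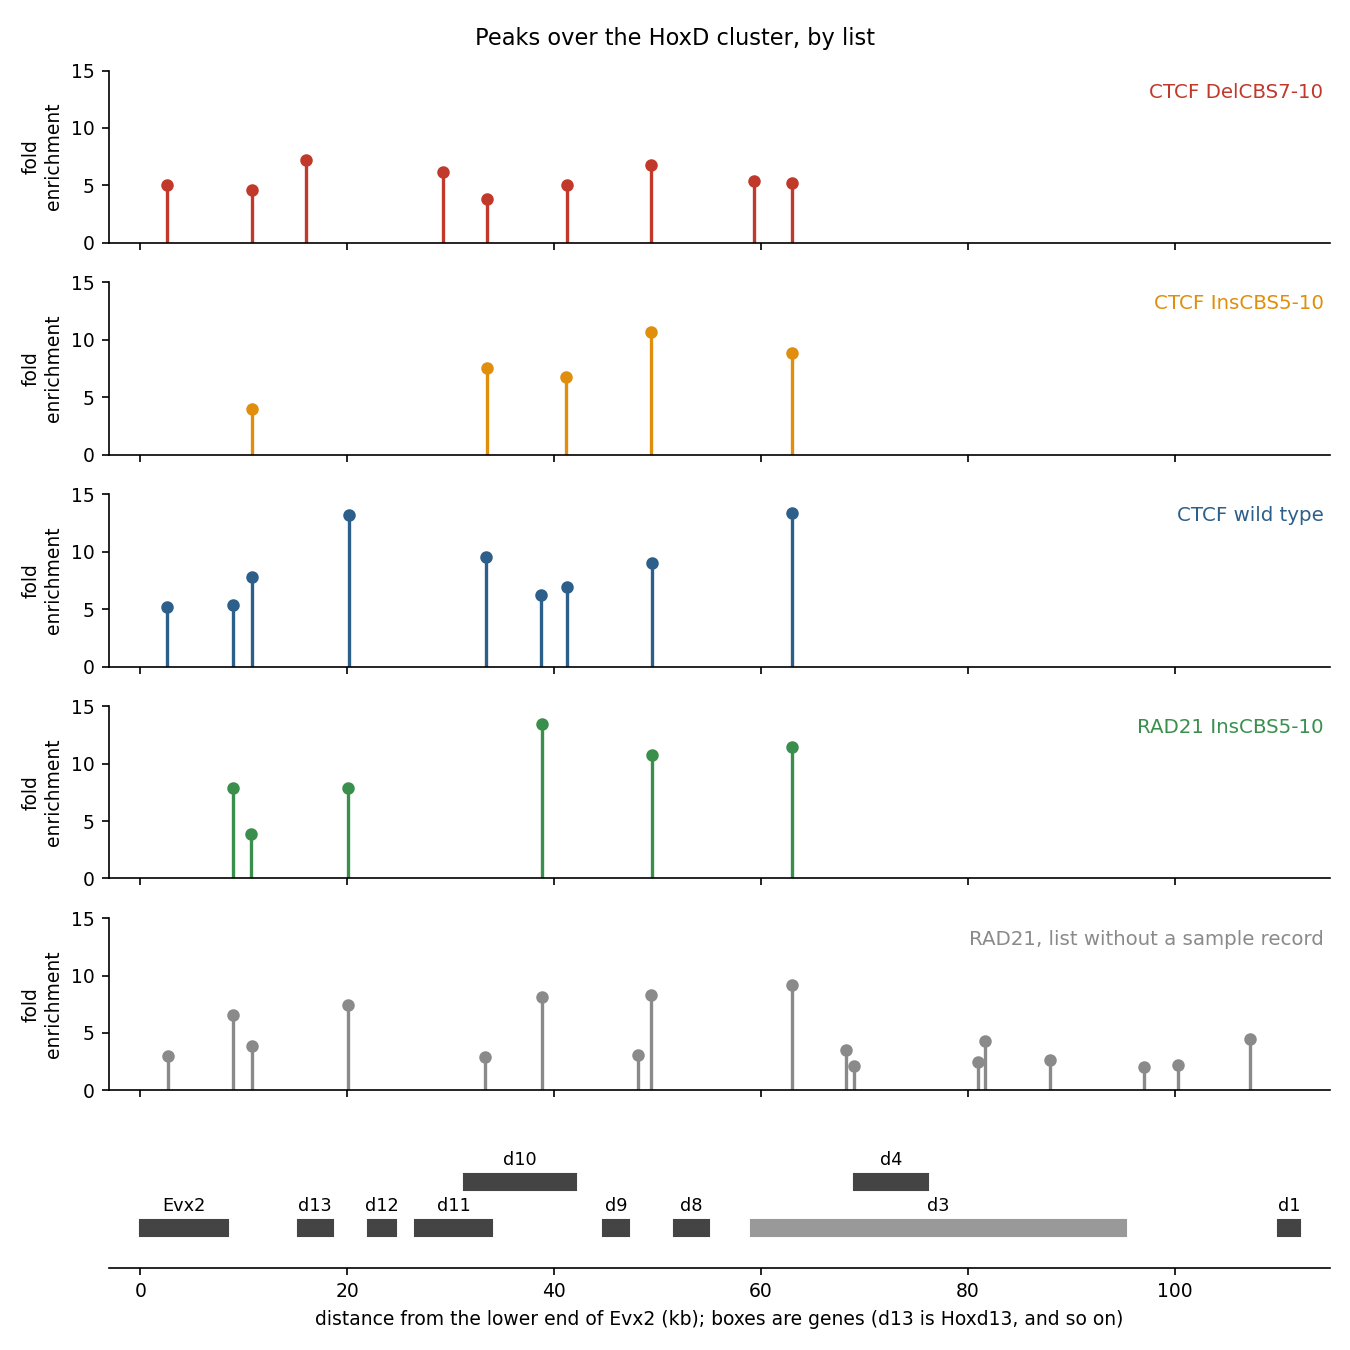
Fold enrichment of each peak (vertical axis, the authors' ratio) against distance from the lower end of Evx2 in kb, for CTCF in DelCBS7-10, InsCBS5-10 and wild type, RAD21 in InsCBS5-10 and the RAD21 list without a sample record; boxes at the bottom are genes. The 9, 5 and 9 CTCF peaks end at the start of Hoxd3os1 within Hoxd3, and 3 of the 6 RAD21 peaks of InsCBS5-10 stand where CTCF was called in wild type but in neither mutant.

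Evx2 encodes a homeodomain factor related to even-skipped and lies next to Hoxd13. A CTCF site inside it (chr2:74655370-74656318) had a fold enrichment of 4.99 in DelCBS7-10 and 5.22 in wild type, at percentiles 43.9 and 46.6, and no peak in InsCBS5-10 for either protein. Both values were near the middle of their lists. Between Evx2 and Hoxd13, over the non-coding gene Gm31790, lay a pair of sites 1.82 kb apart. The first (chr2:74661675-74662132) had no CTCF peak in DelCBS7-10 or InsCBS5-10, and one in wild type at 5.38, percentile 47.9. RAD21 was called there in InsCBS5-10 at 7.89, percentile 72.1, and in the list of no sample at 6.57, percentile 76.7. So cohesin was called in InsCBS5-10, in which CTCF was not. The second of the pair (chr2:74663635-74663919) had CTCF in all 3 groups, at 4.57 in DelCBS7-10, 4.01 in InsCBS5-10 and 7.79 in wild type, which are percentiles 35.7, 22.6 and 68.6. RAD21 had 3.85 in InsCBS5-10, percentile 12.9, and 3.89 in the list of no sample, percentile 43.0. Both mutants stood lower in their lists than wild type did in its own.

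Hoxd13, the gene at the posterior end of the series, acts in digits and external genitalia. Inside its body (chr2:74668285-74669404) a CTCF peak was called in DelCBS7-10 alone, with a fold enrichment of 7.19 and percentile 80.0. It was 1120 bp wide, against a median of 321 bp in that list. Between Hoxd13 and Hoxd12, which acts with it in the limb, lay one of the strongest wild-type peaks of the cluster (chr2:74672896-74673372). No CTCF peak was called there in DelCBS7-10 or InsCBS5-10, and wild type had a fold enrichment of 13.2 at percentile 95.6. RAD21 was called at the same place in InsCBS5-10, at 7.85 and percentile 71.6, and in the list of no sample, at 7.46 and percentile 83.0. Of the 4794 wild-type CTCF peaks in the strongest decile of fold enrichment, 30 (0.626%) were missing from both mutants, and this was 1 of them. RAD21 of InsCBS5-10 was called at 4 of those 30. In the window, 6 wild-type peaks belonged to that decile and the other 5 were found in both mutants.

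Hoxd11, known for the forearm and the kidney, and Hoxd10, known for hindlimb motor neurons, overlap in the annotation. At the second annotated start of Hoxd11 (chr2:74681478-74682563) a peak of 1086 bp was called in DelCBS7-10 alone, with a fold enrichment of 6.14 and percentile 65.1. Its summit lay 93 bp upstream of that start. Where both genes overlap (chr2:74686200-74686666), CTCF had 3.84 in DelCBS7-10, 7.51 in InsCBS5-10 and 9.52 in wild type, at percentiles 21.2, 78.2 and 80.4. Here DelCBS7-10 stood low, while InsCBS5-10 and wild type stood at like percentiles. RAD21 was not called there in InsCBS5-10, and the list of no sample had 2.90, percentile 15.4.

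At the Hoxd10 promoter printed above (site chr2:74691585-74691999), CTCF was called in wild type alone, at 6.23 and percentile 55.9. RAD21 in InsCBS5-10 had its strongest peak of the cluster there, at 13.4 and percentile 98.6, and the list of no sample had 8.17, percentile 87.1. The RAD21 summit of InsCBS5-10 lay 77 bp and the wild-type CTCF summit 113 bp upstream of the start. Of the 3 cluster sites with RAD21 but no CTCF in InsCBS5-10, it had the highest RAD21 percentile. Within the Hoxd10 body (chr2:74693907-74694451) the pattern was turned round. CTCF was called at 5.04 in DelCBS7-10, 6.73 in InsCBS5-10 and 6.90 in wild type, percentiles 44.8, 67.9 and 61.4, and RAD21 was called in neither list.

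Hoxd9 and Hoxd8 are trunk-expressed genes in the middle of the cluster. The site between them (chr2:74702190-74702685) had CTCF at 6.78 in DelCBS7-10, 10.7 in InsCBS5-10 and 9.06 in wild type, percentiles 74.8, 97.1 and 77.5. RAD21 had 10.7 in InsCBS5-10, percentile 92.5, and 8.28 in the list of no sample, percentile 87.7. It was the cluster site with the highest CTCF percentile in InsCBS5-10, above its rank in both other groups. Hoxd3, known for the cervical vertebrae, had 2 sites. At the first (chr2:74712149-74712498) CTCF was called in DelCBS7-10 alone, at 5.33 and percentile 50.6. The second (chr2:74715774-74716349) lies at the start of Hoxd3os1, a non-coding gene on the other strand. CTCF there was 5.20 in DelCBS7-10, 8.85 in InsCBS5-10 and 13.4 in wild type, percentiles 48.0, 89.9 and 95.9, while RAD21 had 11.5 in InsCBS5-10, percentile 95.1, and 9.18 in the list of no sample, percentile 92.2. Only DelCBS7-10 was near the middle of its list.

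From that site on no CTCF peak was called over Hoxd4, which patterns the hindbrain and neck, or Hoxd1, known in sensory neurons. The next CTCF summit lay 240 kb away in DelCBS7-10, 249 kb away in InsCBS5-10 and 96.5 kb away in wild type, where it was weak, at 2.69 and percentile 3.99. The list of no sample had 8 RAD21 peaks between that site and Hoxd1, with fold enrichments of 2.05 to 4.47 and percentiles of 0.274 to 54.4. All 8 therefore ranked below the CTCF-bearing Hoxd3os1 site in the same list.

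By gene, a CTCF peak lay inside or within 5 kb of either end in 8 of 10 members in DelCBS7-10, where 57.3% of all protein-coding genes outside chromosome 11 had one. InsCBS5-10 had 7 of 10, against 54.8% of all genes, and wild type 8 of 10, against 63.6%. RAD21 of InsCBS5-10 had 8 of 10, against 38.1%, and the list of no sample 10 of 10, against 75.3%. Within 1 kb, RAD21 of InsCBS5-10 had 3 of 10, against 29.3% of all genes. Hoxd4 and Hoxd1 had no CTCF peak in any group, and Hoxd12 had none in InsCBS5-10. Members share peaks, because neighbours lie a few kb apart, so these counts are not 10 independent ones. The distance from a start to the nearest summit had a median over members of 2.94 kb in DelCBS7-10, 4.19 kb in InsCBS5-10 and 3.75 kb in wild type for CTCF, and of 4.23 kb for RAD21. The medians over 16221 protein-coding genes were 12.8, 14.3, 9.51 and 27.3 kb in the same order.

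**Figure D2:**
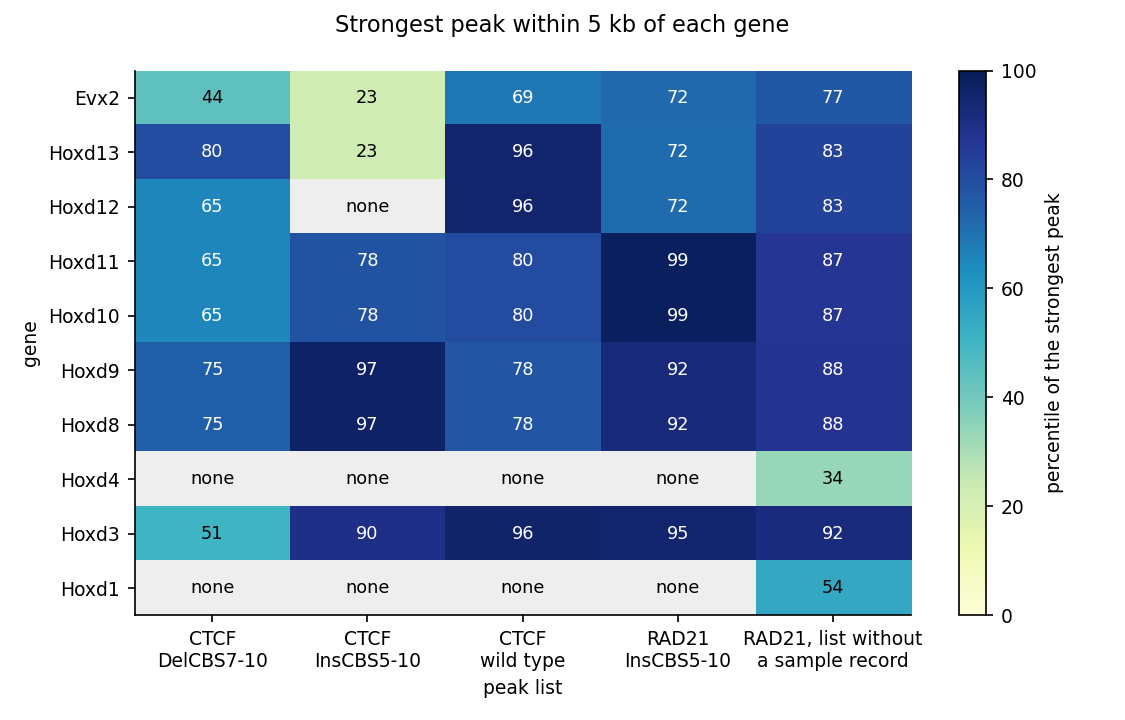
Percentile of the strongest peak inside or within 5 kb of each gene (rows, Evx2 at the top to Hoxd1 at the bottom) in each list (columns), with grey and "none" where no peak was called. Hoxd4 and Hoxd1 are empty in all 4 labelled libraries, and the Hoxd11 and Hoxd10 rows are darkest for RAD21 in InsCBS5-10, at percentile 98.6.

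Of the 12 cluster sites, CTCF was called in all 3 groups at 5, in DelCBS7-10 alone at 3 and in wild type alone at 3. Over the window the numbers were 15 of 40 in all 3 groups (37.5%, exact Clopper-Pearson 95% interval 22.7 to 54.2%, counting error only), against 48.8% of all sites outside chromosome 11 with a CTCF peak. In the window 8 sites were called in DelCBS7-10 alone, 2 in InsCBS5-10 alone and 11 in wild type alone. Of all 53374 sites with a CTCF peak outside chromosome 11, these numbers were 4040, 3188 and 13248 in the same order. The 3 sites with DelCBS7-10 alone in the cluster included both of its widest peaks, and with the Evx2 site 3 of its 9 cluster peaks were 900 bp or wider. In the whole DelCBS7-10 list 1.63% of peaks were that wide. None of the 5 InsCBS5-10 and 9 wild-type cluster peaks was. That limit on width was set after the widths were seen.

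The share of peaks found again in another list was close to that of the whole list for InsCBS5-10, and below it for DelCBS7-10. Of 27 DelCBS7-10 window peaks, 17 (63.0%, 42.4 to 80.6%) were found in wild type, against 86.0% over all peaks, and 17 (63.0%) in InsCBS5-10, against 77.7%. The whole-list share against wild type lies above the upper bound of the interval, and that against InsCBS5-10 lies within it. InsCBS5-10 had 19 window peaks, of which DelCBS7-10 held 16 (84.2%, 60.4 to 96.6%), against 82.5% over all peaks, and wild type also held 16 (84.2%), against 87.7%. Of 29 wild-type peaks, 17 (58.6%, 38.9 to 76.5%) were found in DelCBS7-10, against 65.8%, and 16 (55.2%, 35.7 to 73.6%) in InsCBS5-10, against 63.2%. Of the 9 wild-type cluster peaks, 6 were found in DelCBS7-10 and 5 in InsCBS5-10. Of the 16 wild-type window peaks in the upper 4 deciles of strength, each mutant lacked only the peak between Hoxd13 and Hoxd12.

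**Figure D3:**
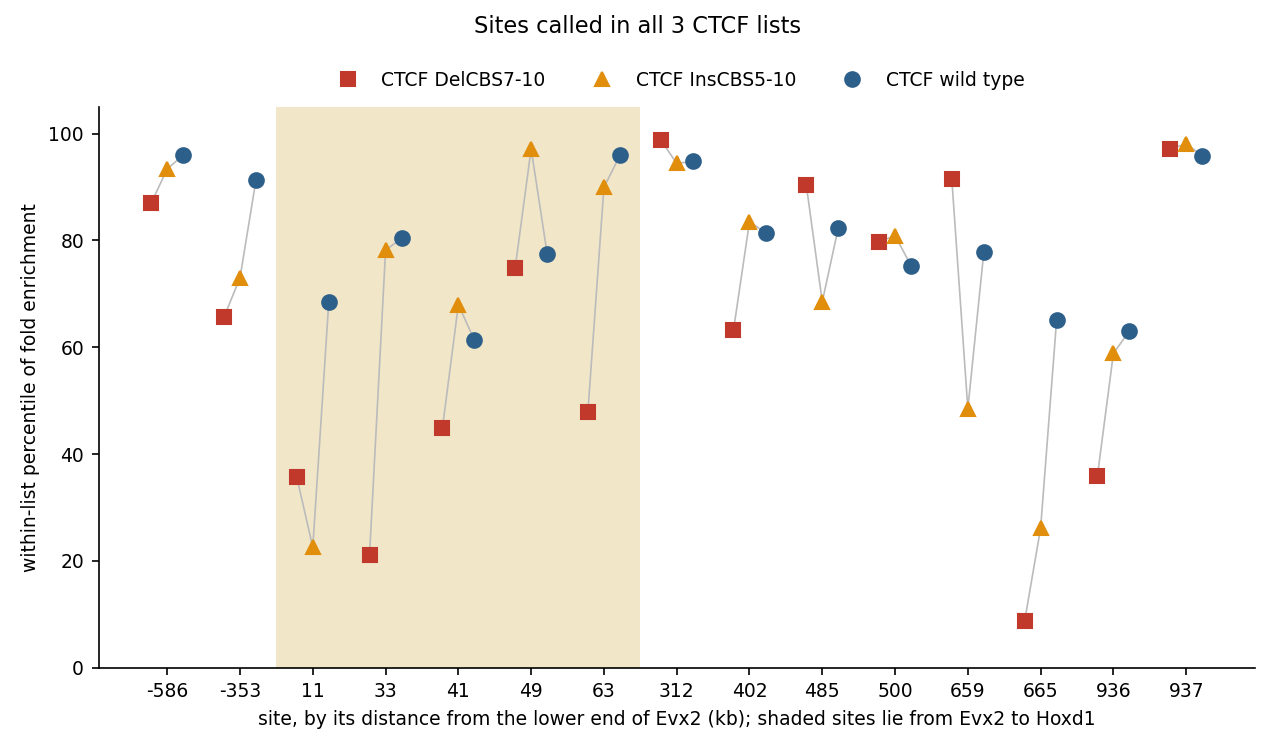
Percentile of CTCF fold enrichment (vertical axis) at the 15 window sites called in all 3 groups, ordered by distance from the lower end of Evx2 in kb; squares are DelCBS7-10, triangles InsCBS5-10 and circles wild type, and the shaded sites lie in the cluster. In the cluster DelCBS7-10 lies lowest at 4 of the 5 sites (3 of 5 when ranked by −log10 q). At the Hoxd11 and Hoxd10 overlap it stands at 21.2, against 80.4 in wild type (40.6 against 75.1 when ranked by −log10 q).

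At the 6 cluster sites with CTCF called in both lists, DelCBS7-10 ranked lower than wild type at all 6 by fold enrichment, and at 4 of the 6 when peaks were ranked by −log10 q instead. The differences in percentile (DelCBS7-10 minus wild type) were -2.63 points within Evx2, -32.9 at the second Evx2 to Hoxd13 site, -59.2 at the Hoxd11 and Hoxd10 overlap, -16.6 within Hoxd10, -2.71 between Hoxd9 and Hoxd8 and -48.0 at the Hoxd3os1 start. Their median was -24.7 points, against -6.67 over 29679 shared sites, whose quartiles were -21.5 and 4.84. Ranked by −log10 q, the median over the 6 was -12.3, against -6.48 over all shared sites. The sites within Evx2 and between Hoxd9 and Hoxd8 then had DelCBS7-10 above wild type, by 5.25 and 2.14 points. By the same ranking the difference was -18.5 at the second Evx2 to Hoxd13 site and -34.5 at the Hoxd11 and Hoxd10 overlap. Within Hoxd10 it was -6.17, and at the Hoxd3os1 start -44.2. DelCBS7-10 was lower by 25 points or more at 3 of these 6 and at 6 of 17 shared sites of the window, against 20.6% of all shared sites. By −log10 q these were 2 of 6 and 5 of 17, against 18.2%. By fold enrichment, at the overlap site and at Hoxd3os1 the difference was below the lowest 5% of all shared sites, which ended at -43.4.

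InsCBS5-10 differed from wild type in both directions. Its differences (InsCBS5-10 minus wild type) were -46.0 at the second Evx2 to Hoxd13 site, -2.22 at the Hoxd11 and Hoxd10 overlap, 6.56 within Hoxd10, 19.6 between Hoxd9 and Hoxd8 and -6.0 at the Hoxd3os1 start. The median over these 5 was -2.22, against -8.09 over 28499 shared sites, and InsCBS5-10 was lower by 25 points or more at 3 of 16 window sites, against 20.4% of all. Between the mutants (DelCBS7-10 minus InsCBS5-10) the cluster differences were 13.1, -57.0, -23.1, -22.3 and -42.0 points in the same order of sites. Their median was -23.1, against 0.63 over 26796 shared sites. Ranked by −log10 q, the differences were 26.2, -30.9, -13.3, -15.6 and -27.7, with a median of -15.6 against 0.87. DelCBS7-10 was lower by 25 points or more at 2 of 16 window sites, both in the cluster, against 9.60% of all. It was higher by 25 points or more at 1, in the telomeric flank (chr2:75312223-75313064), by 42.9 points. Over all shared sites, 2572 were lower and 3335 higher by that much. Both differences from wild type share the wild-type library, and both that involve DelCBS7-10 share its 1 library.

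RAD21 of InsCBS5-10 was called at 15 window sites, each with CTCF in at least 1 group. Most RAD21 peaks of the whole list had CTCF too. Of 19610, CTCF was called at 16629 in InsCBS5-10, and at a further 1999 in wild type but not InsCBS5-10. CTCF of the same genotype was called at 11 of the 15 window peaks (73.3%, 44.9 to 92.2%), against 84.8% of all RAD21 peaks. The other 4 all had CTCF in wild type and in neither mutant (26.7%, 7.79 to 55.1%), against 5.97% of all RAD21 peaks. They were the first site between Evx2 and Hoxd13, the site between Hoxd13 and Hoxd12, the Hoxd10 promoter and a site near the centromeric end of the window (chr2:74027839-74028063). At the last of these CTCF had 4.28 in wild type, percentile 35.3, and RAD21 had 4.37 in InsCBS5-10, percentile 21.0, and the list of no sample had 5.06, percentile 62.6. The wild-type CTCF peaks at the 3 cluster sites had a −log10 q of 13.2, 54.7 and 18.4, and the RAD21 peaks of InsCBS5-10 had 22.2, 16.2 and 49.5. The CTCF list of InsCBS5-10 is shorter than that of wild type, and the part of list length in these missing calls was not tested. RAD21 percentiles had a median of 71.9 at these 4 and of 71.2 at the 11 shared sites. From the other side, 11 of 19 InsCBS5-10 CTCF peaks (57.9%, 33.5 to 79.7%) carried RAD21, against 48.2% of all. Their CTCF percentile had a median of 83.5, and that of the 8 without RAD21 was 32.8. In the whole InsCBS5-10 list, too, 12.6% of CTCF peaks in the weakest decile carried RAD21 and 79.0% in the strongest. Where both were called, the summits lay 10 to 103 bp apart, with a median of 28 bp against 22 bp over all 15853 such sites.

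The plot of percentiles over the window shows the flanks. On the centromeric side, between Atp5g3 and Lnpk, the strongest site (chr2:74066584-74067120) had CTCF percentiles of 87.0 in DelCBS7-10, 93.4 in InsCBS5-10 and 96.0 in wild type, and RAD21 of InsCBS5-10 at 98.0. The next of them (chr2:74300244-74300645) had 65.6, 73.0 and 91.4 with RAD21 at 81.0. DelCBS7-10 was lower by 25.7 points than wild type there. Only 2 of the 11 centromeric sites were called in all 3 CTCF lists. Between the second of these and the cluster, DelCBS7-10 alone of the labelled libraries had peaks, 2 weak ones at percentiles 7.54 and 11.1. The list of no sample had a RAD21 peak in that stretch (chr2:74578760-74579154), at 3.53 and percentile 34.1.

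**Figure D4:**
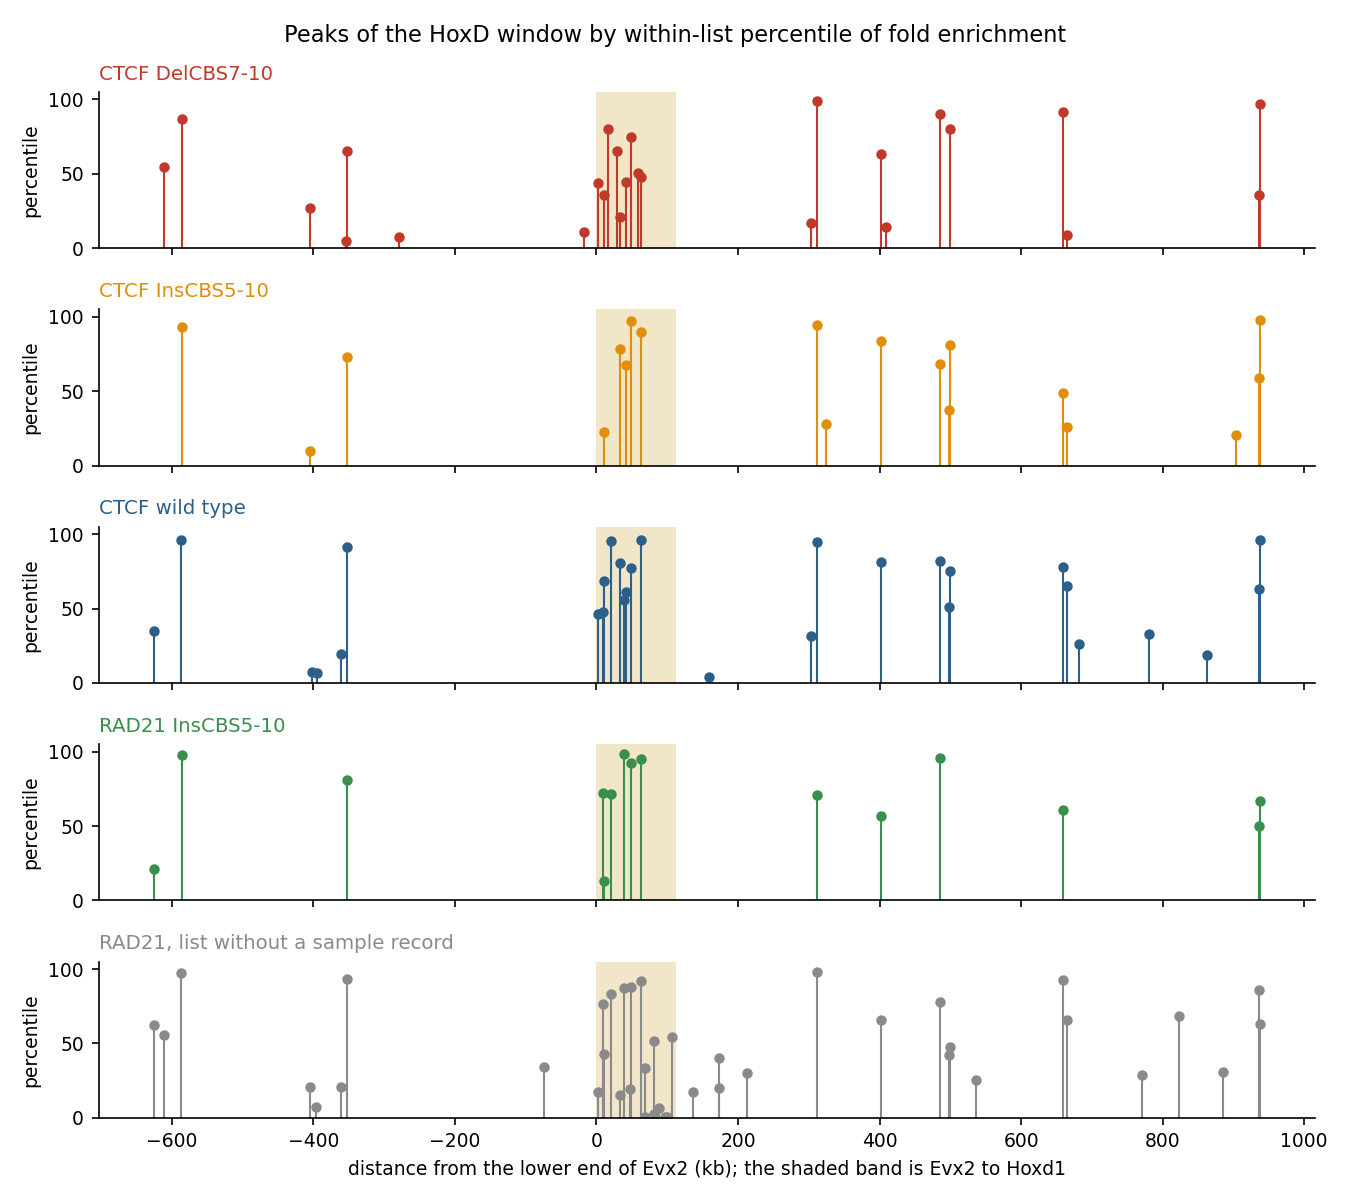
Percentile of fold enrichment (vertical axis) of every peak in the window against distance from the lower end of Evx2 in kb, one panel per list, with the cluster shaded. Tall lines recur at the same flank positions in all panels, and the cluster carries 9, 5 and 9 of the CTCF peaks of DelCBS7-10, InsCBS5-10 and wild type.

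On the telomeric side 8 of 17 sites were called in all 3 CTCF lists. All 8 lay beyond Mtx2, which encodes a mitochondrial outer membrane protein. At the far end (chr2:75590195-75590721) CTCF percentiles were 97.1 in DelCBS7-10, 98.1 in InsCBS5-10 and 95.9 in wild type, with RAD21 at 66.7. The site chr2:74964323-74964788 had 98.8, 94.4 and 94.8 with RAD21 at 71.2. At the Gm13652 start printed above (chr2:75137853-75138370) they were 90.4, 68.5 and 82.3, with RAD21 at 95.9. DelCBS7-10 stood above wild type at all 3. Lower ranks in DelCBS7-10 were not limited to the cluster: a pair of telomeric sites, picked out after their values were seen, had 8.74 in DelCBS7-10, 26.2 in InsCBS5-10 and 65.1 in wild type (chr2:75318154-75318648), and 35.9, 58.8 and 63.1 (chr2:75588614-75588916). With the second centromeric site these made 3 of 11 shared flank sites at which DelCBS7-10 was lower than wild type by 25 points or more. Peak density per 100 kb was 8.02 in DelCBS7-10, 4.46 in InsCBS5-10 and 8.02 in wild type inside the cluster, against 1.07, 0.459 and 0.919 on the centromeric side and 1.32, 1.32 and 1.68 on the telomeric side.

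For the promoters, a CTCF matrix of 19 bases was built from 286 promoters outside chromosomes 2 and 11, with the consensus GCCNCNAGGGGGCGCNNNN. Each of these holds the summit of a wild-type CTCF peak at percentile 70 or above. A score of 11.4, which 5% of promoters with no CTCF peak reach, was reached by 85.0% of 286 other promoters with such a summit and by 7.93% of all 32851. Among the members only the Hoxd9 promoter reached it, at percentile 96.6 of all promoter scores, and no list called a peak over it. The Hoxd10 promoter scored at percentile 36.9, and its best match lay 7 bp from the wild-type CTCF summit and 43 bp from the RAD21 summit of InsCBS5-10. Its wild-type CTCF peak, at percentile 55.9, was weaker than those the matrix was built and checked on. The Gm13652 promoter, at percentile 97.0, had its match 25 bp from the CTCF summit in DelCBS7-10, 97 bp in InsCBS5-10 and 20 bp in wild type. A match describes the letters only, and where none was found these letters are not in the window searched.

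The shorter motifs CCNNNAGGG and AGGGGGC, both parts of the CTCF core that share the letters AGGG and were searched on both strands, stood in 21.4% and 10.6% of all promoters. Hoxd13 held both, at score percentile 90.6, and Hoxd9 held the first. Neither was found in the promoters of Evx2, Hoxd12, Hoxd11 (both starts), Hoxd10, Hoxd8, Hoxd4, Hoxd3 or Hoxd1. The Hoxd3os1 promoter held both, at score percentile 82.8, with its best match 226 bp from the wild-type summit of the site there. That summit lies 156 bp downstream of the start, outside the bases searched, so the sequence under it was not scored.

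Set beside the other clusters that carry no edit, HoxD held 12 CTCF sites over 112.154 kb, HoxA with Evx1 held 12 over 163.023 kb and HoxC held 13 over 115.726 kb. CTCF was called in all 3 groups at 5, 6 and 2 of these. RAD21 of InsCBS5-10 was called at 6 sites in HoxD and at 4 in each of the others, and sites with RAD21 and CTCF in wild type alone numbered 3 in HoxD and 0 in both others. DelCBS7-10 alone had CTCF at 3 of 12 HoxD, 4 of 12 HoxA and 7 of 13 HoxC sites. Where CTCF was called in both, DelCBS7-10 was lower than wild type by 25 points or more at 3 of 6 HoxD, 3 of 7 HoxA and 1 of 2 HoxC sites, with median differences of -24.7, -14.8 and -15.5 points. Members within 5 kb of a CTCF peak were 8, 7 and 8 of 10 in HoxD, 8, 8 and 8 of 12 in HoxA and 8, 8 and 7 of 9 in HoxC, for DelCBS7-10, InsCBS5-10 and wild type in that order.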

How the data were processed

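CTCF and RAD21 peak lists from 4 labelled libraries, 1 per group, and 1 RAD21 list without a sample record were read. Groups came from the sample titles. Per the submitters' processing notes, the authors used cutadapt 4.1 and MACS2 2.2.7.1 on build mm10, and the peak names show that chromosome 11 was given in 2 edited versions. Aligner, control library and caller options: not given in the sources used here. Column 7 of each deposited list holds fold enrichment, a ratio over local background that the authors made per library. The deposited −log10 q in column 9 had a minimum of 1.30 in each list, which means a q-value of 0.05. Both are the authors' values and served only for description, ranking and filtering inside 1 list.

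Summits that shared an interval were collapsed to the strongest. Only chromosomes 1 to 19, X and Y entered, and site totals set beside the window as "outside chromosome 11" leave out that chromosome. Sites were joined over the 4 labelled lists only. A peak counted as found where it overlapped by at least 1 bp, and a gene counted where a peak lay inside it or within 5 kb. Intervals beside shares are exact Clopper-Pearson intervals at 95% and cover counting error alone. With 1 library per group no test was run and depth is unknown from these lists. Gene positions, starts and promoters came from RefSeq tables of GRCm38.p6, the assembly of mm10. All 10 members matched by symbol. Percentiles, overlaps and motif scores were computed in Python 3.11.15 with pandas 2.3.3 and numpy 2.4.6, and were tested on simulated lists. Named sites are all those in the cluster, the 3 of highest wild-type percentile in each flank, and each flank site with RAD21 but no CTCF in InsCBS5-10. A pair of telomeric sites outside this rule was added after their values were seen. The alternatives tried were another joining rule, a stricter −log10 q, other overlaps, distances and rankings. The members and gene lists were chosen with earlier results of these data known.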

Additional observations from a re-analysis of the deposited data

How the results depend on the processing

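Of 79 alternative values for 38 results, 42 stayed within the limits set for calling a value moved, 34 moved and 3 changed sign. These limits differed between results, so a value within them was not always close to the main one. For window sites, 59 in place of 40 counted as within, whereas a median percentile of 49.0 in place of 48.0 counted as moved. The sign changes were in DelCBS7-10 minus wild type. Within Evx2 the difference was 0.122 points over chromosome 2 alone and 5.25 with −log10 q ranked, and between Hoxd9 and Hoxd8 it was 2.14 with −log10 q ranked. These alternatives for differences were chosen after seeing the data. A minimum −log10 q of 5 left 26 window sites in place of 40. With the RAD21 list of no sample joined, an alternative chosen after seeing the data, the window had 59 sites and the cluster 21 in place of 12. The median percentile of cluster sites in DelCBS7-10, 48.0, was 49.0 over chromosome 2 alone and 54.2 with −log10 q ranked. In InsCBS5-10 it was 71.5 with −log10 q ranked, in place of 78.2. Wild type had 67.3 and 67.4 under these alternatives, in place of 68.6, and the list of no sample 36.4 and 64.7, in place of 33.6. With genes counted within 1 kb, members with a CTCF peak were 5 of 10 in DelCBS7-10, 3 in InsCBS5-10 and 4 in wild type. The shares of all protein-coding genes outside chromosome 11 were 46.9, 44.2 and 52.7% in the same order. Members with RAD21 within 1 kb were 3 in InsCBS5-10, against 29.3% of all genes, and 6 in the list of no sample, against 67.8%. The higher share of members than of all genes seen within 5 kb for RAD21 of InsCBS5-10 was thus not seen within 1 kb. A limit of 40 points, also chosen after seeing the data, left 3 sites lower in DelCBS7-10 than in wild type, against 6.74% of all, and 1 lower in InsCBS5-10, against 6.16%. The cause of these changes was not tested. No paired analysis was possible because each group has 1 library. Peak lists carry no read numbers, so depth and threshold cannot be told apart from binding where a peak was not called.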

Other observations

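The RAD21 list without a sample record, which enters no comparison between groups, had 42 peaks in the window. Of these, 22 lay on sites of the labelled lists, with a median percentile of 71.3, and 20 lay elsewhere, with a median percentile of 22.8. In the cluster 9 of its 17 peaks lay off the labelled sites, 8 of them beyond the Hoxd3os1 start. At the Hoxd4 start, where no labelled library had a peak, its summit lay 44 bp downstream of the start. That peak was near the floor of its list, with a fold enrichment of 2.15 and percentile 0.533. All 3 cluster sites with RAD21 in InsCBS5-10 and CTCF in wild type alone also had a peak in that list, at percentiles 76.7, 83.0 and 87.1.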
